A study of Mus musculus with 2 samples.

Results

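The genes described here encode 10 secreted glycoproteins and proteoglycans of the extracellular matrix, measured in mouse embryonic stem (ES) cells: Sparc, Nid1, Nid2, Hspg2, Agrn, Fn1, Tnc, Fbln1, Fbln2 and Fbn1. They were taken from the deposited expression tables by the symbols SPARC, NID1, NID2, HSPG2, AGRN, FN1, TNC, FBLN1, FBLN2 and FBN1, and all 10 were found, each in 1 of the 34376 rows of the gene table, in 23 rows of the promoter table and in 47 rows of the transcript table. The study sequenced mRNA of E14 cells, an ES cell line of mouse strain 129P2/OlaHsd, at passage 29, in 2 groups of 1 library each. The differentiated library came from the mixed population that formed after 4.5 days on gelatin in medium that held 10% serum and all-trans-retinoic acid at 0.1 µM. The undifferentiated library came from cells on mitomycin C treated embryonic fibroblasts in medium with 15% serum and 1000 units per ml of leukaemia inhibitory factor (LIF), the cytokine that keeps mouse ES cells in self-renewal. Before differentiation and before harvest, fibroblasts were depleted by adsorption to plates, and the labels put what remained below 0.25% and dead cells at about 8% in the differentiated and 2% in the undifferentiated culture. Each library was read on 2 lanes in 36-base single-end reads. Values are RPKM (reads per kilobase of gene model, scaled to the lane's reads). The lanes are technical repeats of 1 library, so the differences between groups have no replicate check, no p-value is given, and lane ranges cover technical spread only.

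Basement membranes are sheets of laminin and type IV collagen networks. Nidogens bridge both networks, and the heparan sulphate proteoglycans perlecan (Hspg2) and agrin (Agrn) bind to them, while Sparc is a small calcium-binding glycoprotein that associates with collagens. Fibronectin (Fn1), tenascin C (Tnc), the fibulins (Fbln1, Fbln2) and fibrillin 1 (Fbn1) form or decorate interstitial fibrils and also meet basement membranes. In the early mouse embryo the parietal endoderm lays down a thick basement membrane, Reichert's membrane, and makes Sparc, laminin and type IV collagen in large amounts.

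All 10 genes had higher values in the differentiated library, and 7 of them, Sparc, Tnc, Hspg2, Fbn1, Agrn, Nid1 and Fbln1, were at least 2-fold higher. Ratios are on a log2 scale, of differentiated to undifferentiated values after adding a pseudocount of 1 RPKM to each, and so they are too small for genes with low values. None of the 10 was 2-fold lower. Among the 17899 genes that reached a floor of 1 RPKM in one library or both, 19.1% were at least 2-fold higher and 8.48% at least 2-fold lower. The median ratio of the 10 genes was 1.77, beside 0.12 over all genes at that floor. Nid2, Fbln2 and Fn1 lay between, with ratios of 0.98, 0.79 and 0.59. Nid2 and Fbln2 passed 2-fold when both libraries were scaled to equal RPKM sums (1.23 and 1.00). In these mixed cultures a change in the number of cells that make a transcript and a change in RNA per cell cannot be told apart.

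**Figure D1:**
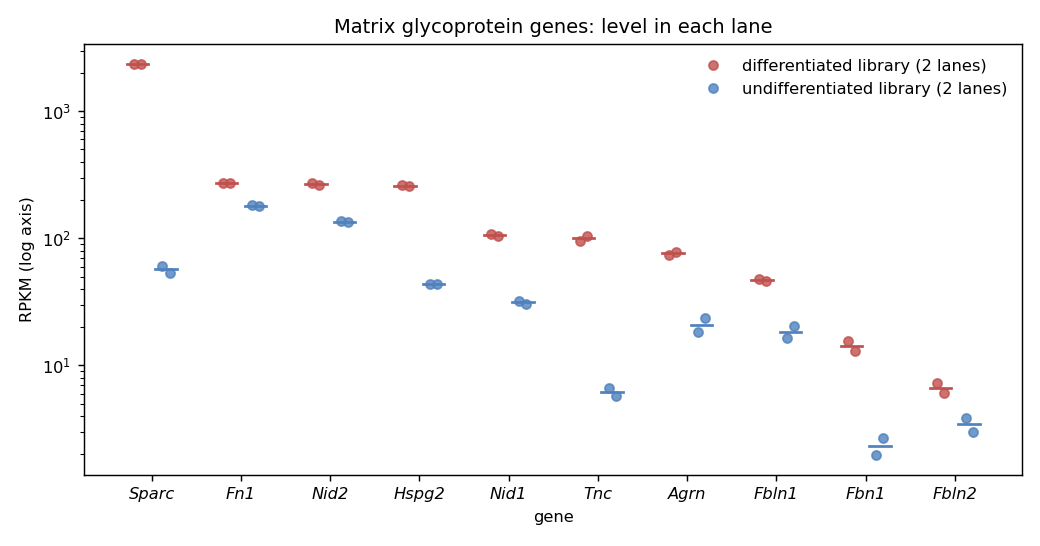
Level of each of the 10 genes in RPKM on a log axis; points are the 2 lanes of a library, bars their mean, with the differentiated library on the left and the undifferentiated library on the right of each gene. In all 10 genes both lanes of the differentiated library lie above both lanes of the undifferentiated library, by the widest margin in Sparc and Tnc.

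The make-up of the group differed between the libraries. Summed over the 10 genes, the level was 3510 RPKM in the differentiated library, against 499.8 RPKM in the undifferentiated library, and without Sparc it was 1150.4 RPKM in the differentiated and 442.7 RPKM in the undifferentiated library. Sparc held 67.2% of the sum in the differentiated library and 11.4% in the undifferentiated library. Fn1 held 7.77% of it in the differentiated library and 36.2% in the undifferentiated library, where it was the highest of the 10, ahead of Nid2. In the differentiated library the order per length was Sparc, Fn1, Nid2, Hspg2, Nid1, Tnc, Agrn, Fbln1, Fbn1 and Fbln2, and Fn1, Nid2 and Hspg2 lay close together between 257 and 273 RPKM over all their lanes. In the undifferentiated library it was Fn1, Nid2, Sparc, Hspg2, Nid1, Agrn, Fbln1, Tnc, Fbln2 and Fbn1. Lanes of neighbours in these orders overlapped for Agrn and Fbln1 in the undifferentiated library, and for no other pair.

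**Figure D2:**
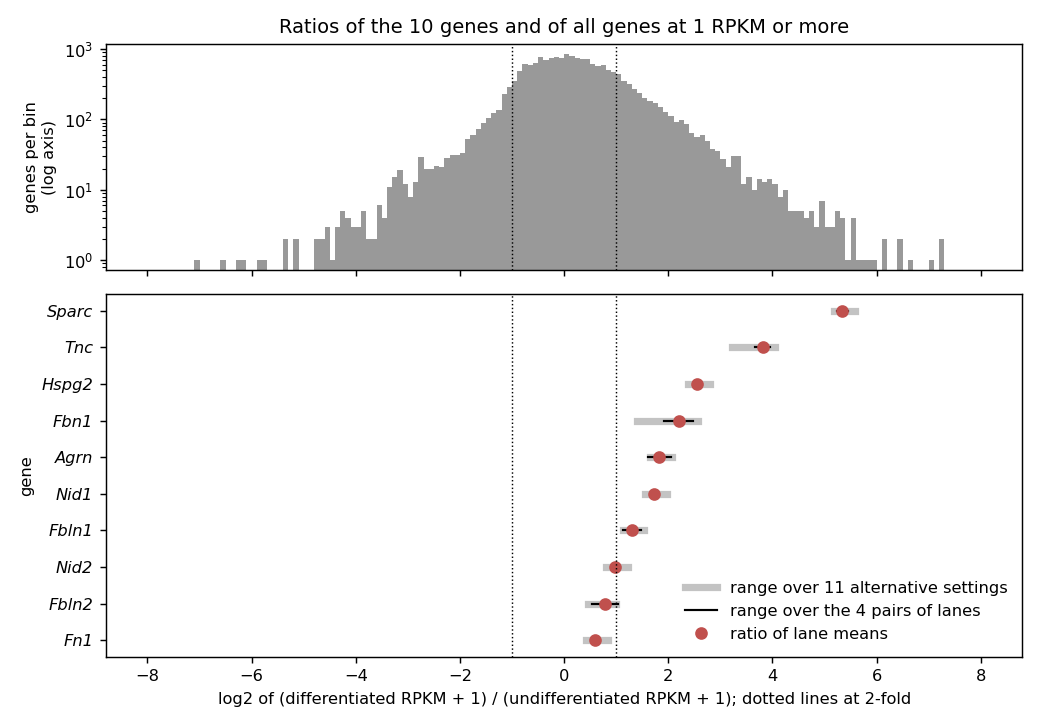
Top, number of genes (log axis) by log2 ratio over the 17899 genes at 1 RPKM or more; bottom, the ratio of each of the 10 genes (point), its range over the 4 pairs of lanes (black line) and over 11 alternative settings (grey bar), with dotted lines at 2-fold. Every point lies to the right of 0, and Sparc at 5.34 and Tnc at 3.81 lie in the upper tail of all genes.

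Sparc, also called osteonectin or BM-40, was by far the most abundant of the 10 after differentiation. On mm9 chromosome 11 (55208002 to 55233582, minus strand), it stood at 2347 and 2371 RPKM in the lanes of the differentiated library, against 60.8 and 53.4 RPKM in those of the undifferentiated library. Its lanes did not overlap between libraries, and the ratio of means without pseudocount was 41.3. Only 11 gene symbols of 34126 had a higher level than Sparc in the differentiated library, where it ranked 12, and it ranked 2474 in the undifferentiated library. Its log2 ratio of 5.34 (5.25 to 5.45 over the 4 pairs of lanes) was exceeded by 20 of the 17899 genes at the floor.

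Sparc models differ at the start of exon 3, where the annotation places the exon boundary at positions 3 bases apart, so that the messages carry the optional triplet in 2, 1 or 0 copies. The junctions are shown because they are the smallest difference among the forms reported. They run from exon 2 into exon 3, were read from GENCODE release M21 transcripts (GRCm38, exon 3 at chr11:55407220-55407279 in its longest form, minus strand), and have the optional bases in capitals.
ENSMUST00000018737: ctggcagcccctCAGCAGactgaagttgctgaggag
ENSMUST00000108858: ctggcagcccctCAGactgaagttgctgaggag
ENSMUST00000141530: ctggcagcccctactgaagttgctgaggag
The model with both copies was close to 0, at 0.829 RPKM in the differentiated and 0.0619 RPKM in the undifferentiated library. The models differ at their ends too, with lengths of 2300, 2115 and 640 bases in GENCODE in the order shown. With 1 copy, the values were 33.5 RPKM in the differentiated and 0.894 RPKM in the undifferentiated library. The model with no copy, which has 7 exons where the others have 10, was at 444 RPKM in the differentiated and 9.93 RPKM in the undifferentiated library. The order of these 3 models was the same in all 4 lanes. Most of the Sparc value was given to a further model, uc007izg.1, that starts inside the gene (mm9 position 55223499). It held 79.7% of the gene's RPKM in the differentiated and 80.4% in the undifferentiated library. This model is not in GENCODE M21, so which junction it uses is not known here, and use of the triplet over all Sparc models was not measured. The sources used here do not say how reads of shared exons were divided among models.

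The nidogens, elongated linker proteins that join laminin to type IV collagen, were both present before differentiation. Nid2 (mm9 chromosome 14, 20570479 to 20631009) was at 272 and 265 RPKM in the lanes of the differentiated library, against 137 and 134 RPKM in the undifferentiated lanes. Nid1 (chromosome 13, 13529869 to 13604542) was at 108 and 105 RPKM in the differentiated lanes, against 32.2 and 30.6 RPKM in the undifferentiated lanes. Nid2 was thus the more abundant of the pair in every lane, and Nid1 the one with the larger ratio, 1.73 (1.67 to 1.78 over pairs of lanes) against 0.98 (0.94 to 1.02) for Nid2. The level of Nid1 was 0.396 of that of Nid2 in both differentiated lanes, against 0.235 and 0.229 in the undifferentiated lanes, a comparison within lanes, which scaling between libraries leaves as it is. Each gene had a single model with a value, so nidogen forms could not be compared. Over 386 bases the Nid2 model overlaps a gene on the other strand, which stood at 107 RPKM in the differentiated and 144 RPKM in the undifferentiated library. The mRNA kit keeps no strand information, so reads there cannot be told apart.

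Perlecan, a very large heparan sulphate proteoglycan of nearly all basement membranes, had a ratio next to those of Sparc and Tnc with the pseudocount of 1 RPKM, while without a pseudocount Fbn1 was ahead of it (6.14 against 5.95). Hspg2 (mm9 chromosome 4, 137024718 to 137126543) stood at 262 and 257 RPKM in the differentiated lanes, against 43.8 and 43.4 RPKM in the undifferentiated lanes. The lanes of a library agreed closely, and the log2 ratio was 2.55, from 2.53 to 2.57 over pairs of lanes. The model that spans the whole gene, ENSMUST00000168109, was at 72.8 and 71.6 RPKM in the differentiated lanes, against 11.7 and 12.1 RPKM in the undifferentiated lanes. A model of the 3′ part of the gene, uc008vjf.1 (from 137101434), held the larger share, 66.3% in the differentiated and 69.1% in the undifferentiated library. Inside Hspg2 and on its strand lie 2 further rows of the gene table, and both were higher: M83997 was at 41.4 RPKM in the differentiated and 7.50 RPKM in the undifferentiated library, and DQ266428 was at 10.2 RPKM in the differentiated and 0.982 RPKM in the undifferentiated library. Reads in the overlaps, of 2273 and 3808 bases, cannot be assigned to 1 row with certainty.

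Agrin, the second heparan sulphate proteoglycan of the group, is known from the neuromuscular junction, where motor nerves release it to cluster acetylcholine receptors. Agrn (mm9 chromosome 4, 155539399 to 155571597, minus strand) stood at 73.6 and 78.7 RPKM in the differentiated lanes, against 18.2 and 23.5 RPKM in the undifferentiated lanes. Its ratio was 1.82, and lane pairs spread from 1.61 to 2.05. The level of Agrn was 0.280 and 0.306 of that of Hspg2 in the differentiated lanes, against 0.417 and 0.540 in the undifferentiated lanes, so perlecan outweighed agrin in every lane.

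Short Agrn exons at the sites named y and z set what the protein does: inserts at the z site are found mainly in neural agrin and give it its strong receptor-clustering activity. In GENCODE M21, ENSMUST00000105575 holds exons of 12, 24 and 33 bases that ENSMUST00000105574 lacks, with all other exons the same. They are shown in capitals between 12 bases of the neighbouring exons, at chr4:156169546-156169557, chr4:156168546-156168569 and chr4:156167777-156167809 (GRCm38, minus strand).
12-base exon: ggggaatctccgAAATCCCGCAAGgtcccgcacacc
24-base exon: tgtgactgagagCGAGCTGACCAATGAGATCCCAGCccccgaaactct
33-base exon: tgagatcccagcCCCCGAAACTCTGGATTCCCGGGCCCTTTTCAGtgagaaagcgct
The form with the 3 exons was rare, at 1.08 and 0.909 RPKM in the differentiated lanes, against 0.0177 and 0.299 RPKM in the undifferentiated lanes. It held 1.31% of the Agrn value in the differentiated library and 0.760% in the undifferentiated library. Over both lanes, about 471 reads in the differentiated and 83 reads in the undifferentiated library stood behind it. These reads are computed from the whole model length, and reads on the short exons themselves were not counted. The form without them was at 0.397 and 0.158 RPKM in the differentiated lanes, against 0 and 0.252 RPKM in the undifferentiated lanes. Both differentiated lanes of the form with the exons lay above both undifferentiated lanes in level, but its shares overlapped (1.47% and 1.16% in the differentiated lanes, against 0.0973% and 1.28% in the undifferentiated lanes). The 2 leading models, ENSMUST00000075787 (39.0 RPKM in the differentiated and 11.1 RPKM in the undifferentiated library) and ENSMUST00000094380 (21.5 RPKM in the differentiated and 4.13 RPKM in the undifferentiated library), are not in GENCODE M21, and whether they hold the short exons is not known here. ENSMUST00000094380 was listed at 0 in lane 1 and at 8.25 RPKM in lane 2 of the undifferentiated library, while ENSMUST00000071248 was at 2.58 RPKM in lane 1 and listed at 0 in lane 2.

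Fibronectin, a dimeric adhesion protein that integrins assemble into fibrils, had the smallest ratio of the 10. Fn1 (mm9 chromosome 1, 71632094 to 71699774, minus strand) stood at 272 and 273 RPKM in the differentiated lanes, against 184 and 178 RPKM in the undifferentiated lanes. The lanes of the 2 libraries did not overlap, but the ratio of 0.59 stayed under 2-fold, at 0.42 to 0.83 over 11 alternative settings. Its 3 leading models kept close shares: ENSMUST00000055226 held 34.1% in the differentiated and 34.3% in the undifferentiated library, uc007bjy.1 held 31.9% in the differentiated and 33.0% in the undifferentiated library, and uc007bka.1 held 18.2% in the differentiated and 19.3% in the undifferentiated library. ENSMUST00000087254 was at 30.6 and 25.7 RPKM in the differentiated lanes, against 8.32 and 0 RPKM in the undifferentiated lanes. ENSMUST00000097700 was listed at 0 in both differentiated lanes and in lane 1 of the undifferentiated library, and at 19.5 RPKM in its lane 2. The exon content of these minor models is not in the tables, so inclusion of the alternative fibronectin exons was not measured.

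Tenascin C, a six-armed glycoprotein of embryonic mesenchyme and wounds that modulates adhesion to fibronectin, had the second highest ratio. Tnc (mm9 chromosome 4, 63620819 to 63708049, minus strand) stood at 95.7 and 104 RPKM in the differentiated lanes, against 6.62 and 5.73 RPKM in the undifferentiated lanes. The ratio was 3.81, 3.67 to 3.96 over pairs of lanes, and 121 of the 17899 genes had a higher one. The level of Tnc was 0.352 and 0.381 of that of Fn1 in the differentiated lanes, against 0.0360 and 0.0322 in the undifferentiated lanes. A row on the other strand overlaps 67162 bases of Tnc and was at 2.74 RPKM in the differentiated and 0.0641 RPKM in the undifferentiated library.

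Transcript models of Tnc also differed in their shares between the libraries. Tenascin C contains a row of fibronectin type III repeats, some of which are encoded by exons that can be skipped. ENSMUST00000107372 differs from ENSMUST00000030056 by 1 coding exon of 273 bases, exon 14, at chr4:63984460-63984732 (GRCm38, minus strand), shown here in capitals between 12 bases of exon 13 and exon 15 because it separates the forms.
Tnc exon 14: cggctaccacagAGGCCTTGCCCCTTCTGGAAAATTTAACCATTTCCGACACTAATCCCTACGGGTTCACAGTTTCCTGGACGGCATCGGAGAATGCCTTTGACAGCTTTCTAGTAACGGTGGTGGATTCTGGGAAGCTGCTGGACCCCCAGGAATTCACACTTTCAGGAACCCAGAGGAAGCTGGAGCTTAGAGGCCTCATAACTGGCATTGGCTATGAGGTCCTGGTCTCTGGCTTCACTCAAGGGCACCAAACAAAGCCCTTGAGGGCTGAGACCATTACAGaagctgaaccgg
The form with this exon was at 38.7 and 39.0 RPKM in the differentiated lanes, against 0.319 and 0.220 RPKM in the undifferentiated lanes. Without it, the form ENSMUST00000030056 was at 39.3 and 44.3 RPKM in the differentiated lanes, against 2.36 and 2.35 RPKM in the undifferentiated lanes. Both forms were higher after differentiation, and the form with the exon had the larger ratio, 4.97, against 3.68 for the form without it. It held 40.4% and 37.5% of the Tnc value in the differentiated lanes, against 4.82% and 3.84% in the undifferentiated lanes, a difference of 34.5 percentage points between the means. About 18000 reads in the differentiated and 142 reads in the undifferentiated library stood behind these values over both lanes. These reads are computed from the model's whole GENCODE length of 7106 bases, while only exon 14 and its junctions separate the forms. Reads on exon 14 itself were not counted. The share of ENSMUST00000030056 was 41.9% in the differentiated and 38.1% in the undifferentiated library. The other 4 models that start at the same exon, ENSMUST00000107374, ENSMUST00000107375, ENSMUST00000107377 and uc008thf.1, each had a higher level but a lower share in the differentiated library. Of these, uc008thf.1 held 6.95% in the differentiated library and 20.4% in the undifferentiated library, a difference of -13.4 percentage points. ENSMUST00000107374 held 5.73% in the differentiated and 16.6% in the undifferentiated library, a difference of -10.9 points. These 2 models had equal values in lane 2 of each library, and their structures are not known here. ENSMUST00000107375, at 4.84% in the differentiated and 11.8% in the undifferentiated library, is not in GENCODE M21 either. Inclusion of exon 14 over all Tnc models was therefore not measured.

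Of 36 transcripts of the 6 genes with several models and at least 5 RPKM in both libraries, 3 differed in share by at least 10 percentage points in the same direction in both lanes, all of them in Tnc. Shares within a gene add up to a fixed total, so these 3 differences depend on each other. With the limit lowered to 1 RPKM there were 7 of 45, the added 4 being Fbln2 models, beside 13.6% of all transcripts. At 5 RPKM 10.4% of 30915 transcripts over all genes did so, so the 8.33% of the 6 genes lie near the share over all genes. At 30 points the Tnc form with exon 14 remained, as 1 of 36, beside 1.43% of all transcripts.

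**Figure D3:**
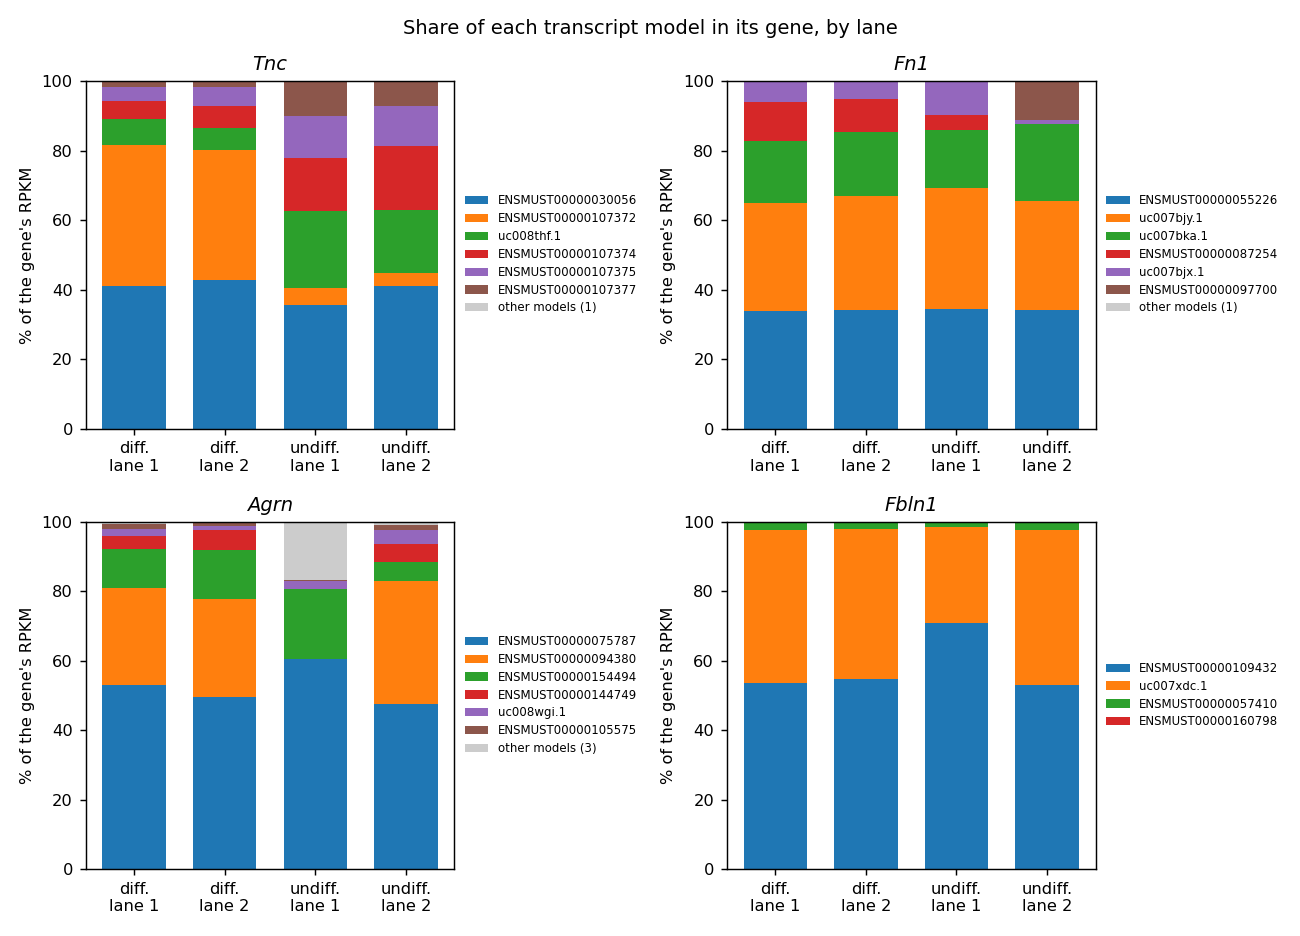
Share of each transcript model in its gene's RPKM, in percent, in the 2 lanes of the differentiated library (left) and of the undifferentiated library (right), for Tnc, Fn1, Agrn and Fbln1. In Tnc the orange part, ENSMUST00000107372 with exon 14, takes 40.4% and 37.5% in the differentiated lanes against 4.82% and 3.84% in the undifferentiated lanes; in Agrn and Fbln1 the undifferentiated lanes differ from each other.

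Fibulin 1 and fibulin 2 are calcium-binding glycoproteins of elastic fibres and basement membranes that bind nidogen and fibronectin. Fbln1 (mm9 chromosome 15, 85036379 to 85116965) stood at 47.6 and 46.3 RPKM in the differentiated lanes, against 16.4 and 20.5 RPKM in the undifferentiated lanes (ratio 1.30). Fbln2 (chromosome 6, 91162449 to 91222534) was low in both, at 7.24 and 6.08 RPKM in the differentiated lanes, against 3.86 and 3.01 RPKM in the undifferentiated lanes. Its ratio of 0.79 ran from 0.54 to 1.04 over pairs of lanes. The promoter at 91162449, which sums 5 Fbln2 models, differed more between lanes than between libraries: it held 36.3% and 67.6% in the differentiated lanes, against 34.2% and 64.9% in the undifferentiated lanes. Of single models, ENSMUST00000041544 held 21.0% and 10.8% in the differentiated lanes, against 34.2% and 37.8% in the undifferentiated lanes. ENSMUST00000113498 held 15.2% and 52.6% in the differentiated lanes, against 0% and 19.7% in the undifferentiated lanes. Each differed with one sign in both lanes, at levels of at most 3.20 RPKM in any lane.

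Fbln1 makes a C form and a D form, which share exons 2 to 14 and end in different exons. The first 60 coding bases of each end, in capitals after 12 shared bases, are shown because reads there tell the forms apart (GRCm38 chr15:85251445-85251504 for C and chr15:85263259-85263318 for D).
Fbln1 C: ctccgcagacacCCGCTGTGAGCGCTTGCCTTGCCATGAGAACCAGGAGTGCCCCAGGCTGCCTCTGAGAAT
Fbln1 D: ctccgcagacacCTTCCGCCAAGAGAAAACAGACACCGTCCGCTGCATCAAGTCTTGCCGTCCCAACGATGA
The C model, ENSMUST00000109432, was at 25.5 and 25.4 RPKM in the differentiated lanes, against 11.7 and 10.9 RPKM in the undifferentiated lanes. The 2 models that reach the distal end, ENSMUST00000057410 of the D form and uc007xdc.1, summed to 22.0 and 20.9 RPKM in the differentiated lanes, against 4.77 and 9.65 RPKM in the undifferentiated lanes. Both ends were higher after differentiation in every lane. The C model held 53.7% and 54.8% of Fbln1 in the differentiated lanes, against 70.9% and 53.0% in the undifferentiated lanes, so the difference in shares has opposite signs in the 2 lanes.

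Fibrillin 1, the backbone of microfibrils that hold latent TGF-beta, had the lowest undifferentiated level. Fbn1 (mm9 chromosome 2, 125126330 to 125333729, minus strand) stood at 15.6 and 13.0 RPKM in the differentiated lanes, against 1.97 and 2.69 RPKM in the undifferentiated lanes. The ratio was 2.20, from 1.93 to 2.48 over pairs of lanes. Its model ENSMUST00000028633 held 93.5% in the differentiated and 93.8% in the undifferentiated library. Fbn1 and Fbln2 did not reach 5 RPKM in the undifferentiated library and are not in the count of share differences. Fbn1 and Fn1 also lie within listed spans of over 1 Mb on the other strand. The span over Fbn1 is named NCOA3 (20.3 RPKM in the differentiated and 42.8 RPKM in the undifferentiated library). That over Fn1 is named GM6497 (54.4 RPKM in the differentiated and 69.3 RPKM in the undifferentiated library). Whether spans of this length are those of single genes was not checked, so a true overlap is not shown.

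The promoter table groups transcripts by their first exon. Among 17 promoters of the 6 genes compared (Sparc, Hspg2, Agrn, Fn1, Tnc and Fbln1), none differed in share by 10 percentage points with the same sign in both lanes, against 12.2% of 15541 promoters over all genes. In Tnc the inner first exon (ending at mm9 63681760) held 99.8% in the differentiated and 99.9% in the undifferentiated library, and the outer one (ending at 63708049) held 0.244% in the differentiated and 0.0962% in the undifferentiated library. In Agrn the outermost first exon held 30.1% and 29.2% in the differentiated lanes, against 4.97% and 39.2% in the undifferentiated lanes. The RefSeq promoter table (GRCm38.p6, 250 bases before to 50 after a gene start) held 11 windows for 8 of the 10 genes, all but Nid2 and Fn1. The GC box letters GGGCGG, on either strand, were found in 9 of the 11 windows, in each of the 8 genes except Sparc, and in 35.7% of all 32851 windows. The letters TATAAA were in both Tnc windows, which overlap and share this site, and in 13.6% of all. TATATAA was in 1 Tnc window and in 3.24% of all. None of the 11 held the GATA-type letters TGATAA (present in 9.05% of all windows) or AGATAA (in 11.2%), the AP-1 letters TGAGTCA (in 5.20%) or the nuclear receptor half-site AGGTCA (in 16.3%), on either strand. The Sparc window and both Tnc windows lie at the outer first exon. In Tnc that exon held only 0.244% in the differentiated and 0.0962% in the undifferentiated library, and the inner first exon has no window. In Sparc the outer first exon held 20.3% in the differentiated and 19.1% in the undifferentiated library. The first exon of uc007izg.1, with 79.7% in the differentiated and 80.4% in the undifferentiated library, has no window. The windows of Sparc and of Tnc, the genes with the 2 highest ratios, are shown with these motifs in capitals (chr11:55420031-55420330 and chr4:64046887-64047186, both minus strand).
Sparc: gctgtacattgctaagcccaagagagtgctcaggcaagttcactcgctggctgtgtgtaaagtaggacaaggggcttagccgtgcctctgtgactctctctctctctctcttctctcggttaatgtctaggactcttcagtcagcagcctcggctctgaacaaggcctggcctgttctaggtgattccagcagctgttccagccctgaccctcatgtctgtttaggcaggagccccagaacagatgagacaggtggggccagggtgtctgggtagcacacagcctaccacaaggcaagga
Tnc: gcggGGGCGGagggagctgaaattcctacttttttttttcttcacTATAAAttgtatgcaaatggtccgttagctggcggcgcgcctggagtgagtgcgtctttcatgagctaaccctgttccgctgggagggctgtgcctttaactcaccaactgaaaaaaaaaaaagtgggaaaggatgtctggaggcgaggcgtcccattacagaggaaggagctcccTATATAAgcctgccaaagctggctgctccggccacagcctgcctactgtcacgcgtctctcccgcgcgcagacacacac

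Partner genes of the same matrices were mostly higher too. Among 26 other basement membrane genes, 18 reached the floor: 16 were higher and 2 lay between, with no gene 2-fold lower (median ratio 2.57, beside 0.12 over all genes). Over all genes at the floor, 19.1% were at least 2-fold higher and 8.48% at least 2-fold lower. Genes can pass this floor only through the library where they are high, as Col4a5 did (9.85 RPKM in the differentiated and 0.466 RPKM in the undifferentiated library). Without a floor the median of the list was 1.59, beside 0.022 over all genes. Col4a2 and Col4a1, type IV collagen chains, had ratios of 7.22 and 7.03, and Lama1, the laminin alpha 1 chain, had a ratio of 5.69. Per length, Sparc was above Col4a1 in both libraries, as Col4a1 stood at 1755 RPKM in the differentiated and 12.5 RPKM in the undifferentiated library. Relatives of the 10 genes were more mixed, with 8 higher, 1 lower and 6 between of 15 at the floor (median 1.68, and 0.73 without a floor). The highest of these were Fbn2, fibrillin 2 (23.1 RPKM in the differentiated and 0.420 RPKM in the undifferentiated library, 4.08), and the Sparc relatives Spock1 (4.06) and Smoc2 (3.88). Fbn2 was therefore above Fbn1 in the differentiated and below it in the undifferentiated library.

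Receptors, modifying enzymes and proteases of these matrices gave the following counts at the floor, beside 19.1% of all genes at least 2-fold higher and 8.48% at least 2-fold lower. Without a floor the list medians were 1.12 (receptors), 0.93 (heparan sulphate), 1.45 (elastic fibres) and 2.11 (proteases). Of 18 matrix receptor genes 13 were higher and 1 was lower (median 1.32), led by the integrin chains Itga3 (2.97) and Itgav (2.64) and the syndecan Sdc2 (2.48). Of 17 genes of heparan sulphate synthesis, which make and edit the chains that perlecan and agrin carry, 10 were 2-fold higher and 0 were 2-fold lower (median 1.03). Hs3st1, a 3-O-sulphotransferase, stood at 61.6 RPKM in the differentiated and 0.641 RPKM in the undifferentiated library (5.25), and Hs6st2 (3.54) and the sulphatase Sulf1 (2.39) followed. Of 8 elastic fibre and microfibril genes 5 were 2-fold higher and 0 lower (median 1.47), with the lysyl oxidase relatives Loxl2 (3.45) and Loxl1 (2.34) and the microfibril gene Mfap2 (1.62) in front. Of 19 matrix protease and inhibitor genes 13 were higher and 1 was lower (median 2.52), led by Plat, tissue plasminogen activator (4.89), Bmp1, the procollagen C-proteinase (3.70), and Timp3 (3.69).

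**Figure D4:**
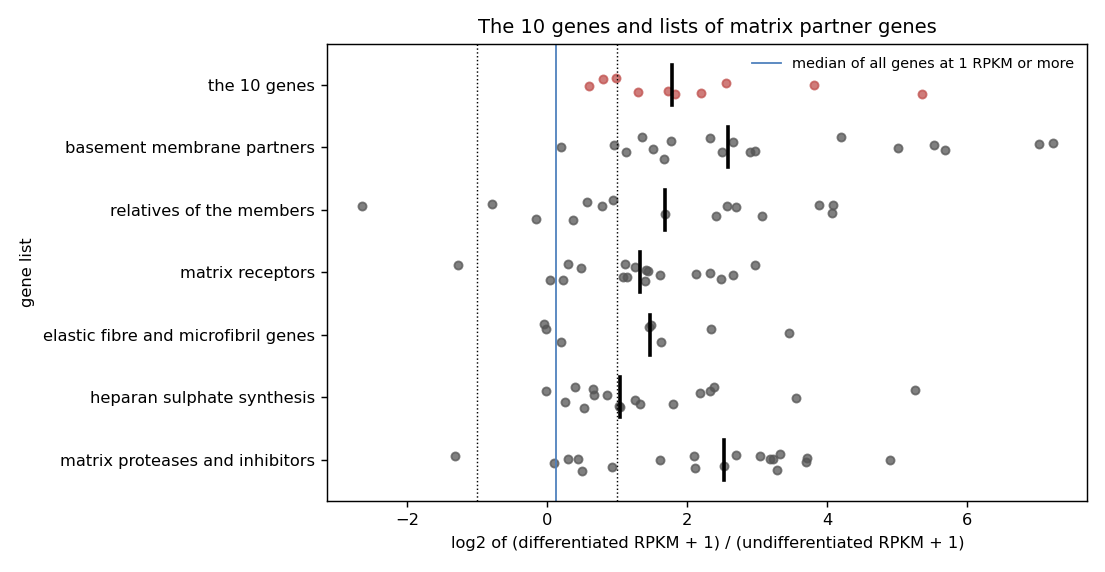
Log2 ratio of each gene at 1 RPKM or more in the group of 10 (red) and in 6 lists of partner genes (grey), with list medians as black bars, the median of all genes as a blue line and dotted lines at 2-fold. The median of the 10 genes is 1.77, and the list medians run from 1.03 for heparan sulphate synthesis to 2.57 for basement membrane partners.

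Markers of pluripotent, endoderm and smooth muscle cells differed between the libraries in most of their genes, while neural, endothelial and fibroblast lists were mixed. The lists were chosen with earlier results of these data known. Over all genes at the floor, 19.1% were at least 2-fold higher and 8.48% at least 2-fold lower. All 10 markers of pluripotent ES cells were lower, with a summed level of 319 to 328 RPKM over the differentiated lanes, against 3905 to 3913 RPKM over the undifferentiated lanes, led by Nr0b1 (-5.83) and Esrrb (-5.38). All 14 parietal endoderm markers were higher, with sums of 1967 to 2009 RPKM in the differentiated lanes and 55.9 to 58.3 RPKM in the undifferentiated lanes, led by Pth1r (6.61) and Gata4 (5.89). Of 10 visceral endoderm markers matched, 9 reached the floor and 8 were higher (sums of 197 to 198 RPKM in the differentiated lanes and 3.74 to 3.88 RPKM in the undifferentiated lanes), led by Cubn (5.97) and Ttr (4.49). Of these 9, only Cubn and Amn also reached 1 RPKM in the undifferentiated library. The rest passed the floor through the differentiated library alone, which favours a call of higher. Of 14 fibroblast and feeder markers 13 reached the floor, with 5 higher and 8 between, and sums of 241.5 to 242.0 RPKM in the differentiated lanes and 44.9 to 45.1 RPKM in the undifferentiated lanes, led by Col1a1 (3.33) and Col3a1 (3.02). Split after the values were seen, Col1a1, Col1a2 and Col3a1 summed to 219.7 and 217.1 RPKM in the differentiated lanes, against 25.03 and 20.2 RPKM in the undifferentiated lanes. The other 11 fibroblast markers summed to 22.3 and 24.4 RPKM in the differentiated lanes, against 20.1 and 24.7 RPKM in the undifferentiated lanes. Of these, Twist2 (1.35) and Dcn (1.19) were at least 2-fold higher. Fbln5 (0.94), Prrx1 (0.72) and Pdgfrb (0.50) had positive ratios under 2-fold. Col6a3 (-0.45), Postn (-0.49), Thy1 (-0.50), Fap (-0.59) and S100a4 (-0.48) had negative ratios under 2-fold, and Lum did not reach the floor. Of 6 smooth muscle markers 5 were higher (sums of 2730 to 2733 RPKM in the differentiated lanes and 524 to 536 RPKM in the undifferentiated lanes), led by Tagln (6.15) and Cnn1 (4.05). Of 11 neural markers 6 reached the floor, with 1 higher (Nes, 2.98) and 2 lower (Elavl3 at -1.78 first), and sums of 54.1 to 62.0 RPKM in the differentiated lanes and 52.9 to 55.4 RPKM in the undifferentiated lanes. Of 10 endothelial and blood markers 5 reached the floor, with Cdh5 higher (1.21) and Pecam1 lower (-2.90), sums of 8.59 to 11.4 RPKM in the differentiated lanes and 20.02 to 24.4 RPKM in the undifferentiated lanes, and 1 marker listed at 0 in the differentiated and 2 in the undifferentiated library. Plat stands both in this parietal endoderm list and among the proteases, and Fbln5 both in the fibroblast list and among the relatives of the 10 genes. The part of each cell type in the levels of the 10 genes was not tested.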

How the data were processed

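Poly(A) RNA of 1 differentiated and 1 undifferentiated E14 culture was sequenced on 2 lanes each, per the labels' protocols. The authors deposited tables of genes, promoters and transcripts with a value per lane and library mean. The tables name no unit. The deposited values were read as RPKM, since in 7979 single-exon genes 81.6% to 82.2% of low values (value times length above 0 and under 1000) were whole multiples of 1 read within 5% of a read. This implied about 33000000 and 32000000 reads in the differentiated lanes, and 37800000 and 36100000 in the undifferentiated lanes. Sums of RPKM were 840410 and 832428 in the differentiated lanes, and 984992 and 994218 in the undifferentiated lanes. The build is mm9, per the submitters' processing notes. The sources used here do not give the aligner, the counting program or the annotation. Printed coordinates count from 1.

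A pseudocount of 1 RPKM, a floor of 1 RPKM in either library and a 2-fold limit were used, without a test. Of rows with the same symbol (488), the highest was kept. Shares were compared in genes with several models and a sum of 5 RPKM in both libraries. Sequences came from GENCODE M21 by transcript ID (28 of 47 models matched, 22 with the span they have in the tables) and from RefSeq, and coordinates were not converted between builds. Approximate reads are RPKM times GENCODE length times lane depth. The members, gene lists and thresholds were chosen with earlier results of these data known. Named partners are the 3 genes of each list, and named markers the 2 of each list, with the largest absolute ratio. Synonyms of the RefSeq gene table (GRCm38.p6) placed 2 list genes, and Rhox5 was not matched and is not analysed here. Calculations used Python 3.11.15, numpy 2.4.6 and pandas 2.3.3, and calls were tested on simulated data.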

Additional observations from a re-analysis of the deposited data

How the results depend on the processing

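No paired analysis was possible because each group is 1 library. All 10 genes kept their direction, and Sparc, Tnc, Hspg2, Fbn1, Agrn, Nid1 and Fbln1 their call, under 11 alternatives (2 pseudocounts, 2 floors, 4 scalings, each lane alone and summed rows). Of these, the 2 floors and summed rows could not change the 10 ratios. Each of the 10 genes has 1 row, and the lowest of them, Fbln2, was at 6.66 RPKM in the differentiated library. With equal sums of RPKM, 9 genes passed 2-fold, as Nid2 and Fbln2 did so. The orders of level were the same in each lane, a setting added after seeing the data. Summed rows, added then too, could not change these orders. The median ratio of the 10 genes was 1.5 with a pseudocount of 5 RPKM, 1.65 when centred on the median of all genes, 1.61 after trimmed-mean scaling, 1.65 by the upper quartile and 2.02 at equal sums. These 4 scalings moved the median of all genes by -0.12, -0.16, -0.12 and 0.22, and of all genes past 2-fold 69.3% were higher as deposited, against 59.4%, 58.1%, 61.0% and 80.6%. Promoters with a share difference numbered 2 of 17 in lane 1 alone (11.8%, beside 18.04% of all promoters) and 1 at 5 percentage points (5.88%, beside 21.0%), against 0. The count of transcripts, 3, became 7 in lane 1 alone (19.4%, beside 16.1% of all transcripts), 7 with gene sums of 1 RPKM (15.6%, beside 13.6%), 6 at 5 points (16.7%, beside 19.2%), and 1 at 20 points (2.78%, beside 3.75%) and at 30 points (2.78%, beside 1.43%). The cause was not tested. Forms of weakly expressed genes had few reads: the Fbln2 models whose reads could be computed had at most about 342 in the differentiated and 436 in the undifferentiated library. Reads of the Fbln2 models ENSMUST00000113498 and uc009cxy.1 were not computed. The part of depth in the share differences was not tested.

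Medians of gene lists that moved by more than the spread between lanes follow, by setting, with the list in brackets. With a pseudocount of 0.1 RPKM they were 3.51 (basement membrane), 2.46 (relatives), 1.82 (receptors), 2.04 (elastic fibres), 1.29 (heparan sulphate), 3.24 (proteases), 5.51 (parietal endoderm), 3.67 (visceral endoderm), 1.13 (fibroblast), -4.73 (pluripotency) and 2.53 (smooth muscle). With a pseudocount of 5 RPKM they were 1.41 (basement membrane), 0.74 (relatives), 0.81 (receptors), 0.59 (elastic fibres), 0.84 (heparan sulphate), 1.77 (proteases), 3.26 (parietal endoderm), 0.94 (visceral endoderm), 0.28 (fibroblast), -4.11 (pluripotency) and 2.03 (smooth muscle). Without a floor they were 1.59 (basement membrane), 0.73 (relatives), 1.12 (receptors), 2.11 (proteases), 1.93 (visceral endoderm) and 0.036 (endothelium). At a floor of 5 RPKM they were 2.93 (basement membrane), 2.70 (relatives), 1.52 (receptors), 1.91 (elastic fibres), 1.25 (heparan sulphate), 3.03 (proteases), 3.67 (visceral endoderm), 2.86 (fibroblast), -2.90 (endothelium) and 2.32 (smooth muscle). After centring they were 2.45 (basement membrane), 1.19 (receptors), 2.39 (proteases), 2.12 (visceral endoderm), -4.62 (pluripotency) and 2.01 (smooth muscle). After trimmed-mean scaling they were 2.41 (basement membrane), 1.16 (receptors), 0.87 (heparan sulphate), 2.36 (proteases), 4.64 (parietal endoderm), 2.10 (visceral endoderm), -4.65 (pluripotency), -0.15 (neural) and 1.97 (smooth muscle). After upper-quartile scaling they were 2.45 (basement membrane), 1.2 (receptors), 2.40 (proteases), 2.13 (visceral endoderm), -4.61 (pluripotency) and 2.01 (smooth muscle). At equal sums they were 2.63 (basement membrane), 1.88 (relatives), 1.53 (receptors), 1.66 (elastic fibres), 1.27 (heparan sulphate), 2.54 (proteases), 5.05 (parietal endoderm), 2.45 (visceral endoderm), -4.26 (pluripotency) and 2.38 (smooth muscle). In lane 1 they were 2.44 (basement membrane), 1.49 (relatives), 1.37 (receptors), 2.46 (proteases), 2.46 (visceral endoderm) and -0.41 (neural). In lane 2 they were 2.40 (basement membrane), 1.28 (relatives), 1.22 (elastic fibres), 1.2 (heparan sulphate), 2.46 (proteases) and 2.50 (visceral endoderm). With a pseudocount of 5 RPKM the counts of higher genes that moved by over 1.5 times were 8 (receptors), 2 (elastic fibres), 4 (visceral endoderm), 3 (fibroblast), 0 (endothelium). At a floor of 5 RPKM the counts of higher genes that moved by over 1.5 times were 3 (elastic fibres), 3 (fibroblast), 0 (endothelium). With a pseudocount of 0.1 RPKM the counts of lower genes that moved by over 1.5 times were 2 (relatives), 2 (endothelium). With a pseudocount of 5 RPKM the counts of lower genes that moved by over 1.5 times were 0 (receptors), 0 (proteases), 1 (neural). At a floor of 5 RPKM the counts of lower genes that moved by over 1.5 times were 0 (proteases), 1 (neural). In lane 1, 2 genes were lower (relatives).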

Other observations

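The partner lists held 3 genes that were 2-fold lower, Ltbp4, Itga9 and Mmp3, and the genes described here were chosen after their values were seen. Ltbp4, a binding protein of latent TGF-beta and a relative of the fibrillins, was at 12.9 RPKM in the differentiated and 86.4 RPKM in the undifferentiated library (ratio -2.65), while its relative Ltbp1 was at 39.9 RPKM in the differentiated and 6.72 RPKM in the undifferentiated library (2.41). Itga9, an integrin chain that binds tenascin C, was at 2.69 RPKM in the differentiated and 7.92 RPKM in the undifferentiated library (-1.27), where Tnc itself was lower. Mmp3, stromelysin 1, a matrix metalloproteinase, was at 0.120 RPKM in the differentiated and 1.79 RPKM in the undifferentiated library (-1.31). Eln, the elastin gene, did not reach the floor in either library (0.379 RPKM in the differentiated and 0.536 RPKM in the undifferentiated library), and neither did Musk, the muscle receptor kinase through which agrin acts (0.0233 RPKM in the differentiated library and listed at 0 in the undifferentiated library). Its partner Lrp4, which binds agrin, was at 5.70 RPKM in the differentiated and 1.21 RPKM in the undifferentiated library (1.6).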
